A study of Drosophila melanogaster with 3 samples.

Results

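The nuclear genes for oxidative phosphorylation were examined for binding of Phol, a DNA-binding protein, in fly embryos. The genes were chosen by symbol, with earlier results of these data known. They were those beginning with ND-, UQCR-, ATPsyn or COX followed by a digit from 4 to 8. SdhA, SdhB, SdhC, SdhD, Cyt-c1 and RFeSP were added. This gave 86 of the 13945 protein-coding genes on the 6 chromosome arms. Of these, 65 are called main genes here. The other 21 are like paralogs, whose symbol is that of another subunit followed by L, or by L and a digit. ND-MNLL was counted as a main gene because its last letters belong to the name of the bovine subunit. The complex of each gene was read from its symbol and was not checked otherwise. The main genes comprised 34 of complex I, 4 of complex II, 8 of complex III, 8 of complex IV and 11 of complex V. The like paralogs comprised 6 of complex I, 3 of complex III, 8 of complex IV and 4 of complex V.

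Oxidative phosphorylation is carried out in the inner mitochondrial membrane. Complexes I and II pass electrons from NADH and succinate to ubiquinone, complex III passes them to cytochrome c and complex IV to oxygen, while complexes I, III and IV pump protons that drive the ATP synthase, complex V. Most subunits are encoded in the nucleus, the rest in mitochondrial DNA, and supply of the nuclear subunits has to be matched across many scattered genes. Many Drosophila subunits have a duplicated copy, and such copies of mitochondrial genes are known for expression mainly in the testis. Phol is a zinc finger protein related to Pho and to mammalian YY1, and both fly proteins recognise sites with the core GCCAT and help to bring Polycomb-group proteins to DNA.

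The study measured Phol in 1 group of 3 biological replicates, with no second condition. Each replicate was chromatin of whole mixed sex embryos, 0 to 16 h old, from a transgenic Drosophila melanogaster line in which Phol carries GFP at its C-terminus, precipitated with an antibody against GFP. Every replicate carried the transgene, so peaks that arise without Phol cannot be told apart from Phol peaks here, and whether the untagged phol gene was also present is not given in the sources used here. Whether the replicates came from separate collections is not stated, so each SD measures the spread between these samples. In whole embryos, a strong peak in a few cells and a weak peak in many cannot be told apart.

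Each replicate list held 30000 peaks, a list called on the pooled replicates held a further 30000, and 10264 of the pooled peaks formed the authors' reproducible list. A gene was called occupied when a peak had its summit no more than 500 bp from an annotated start of that gene. For each replicate the strongest 10264 peaks were used for counts, and the percentile rank of a gene's strongest peak among the 30000 of that replicate was used for strength, with 0 the strongest. Read depth is unknown. No p-values are given, since there is 1 group and the genes are not replicates.

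Phol peaks lay at the starts of 53 of the 65 main genes (81.5%) and of 1 of the 21 like paralogs (4.76%) in the reproducible list, against 40.8% of all protein-coding genes. All members together gave 54 of 86 (62.8%). The same split was seen in every replicate. Main genes were occupied in 59, 54 and 41 cases in replicates 1, 2 and 3, a mean of 79.0% ± 14.3 (SD, n = 3), where 43.0%, 41.5% and 37.0% of all genes were occupied. Like paralogs were occupied in 1, 2 and 3 cases, a mean of 9.52% ± 4.76 (SD, n = 3). The lowest count for main genes, in replicate 3, was 63.1%, above the highest for like paralogs, 14.3%. A peak in all 3 replicates was found at 40 of the 86 members, all of them among the 65 main genes, against 34.2% of all genes.

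**Figure D1:**
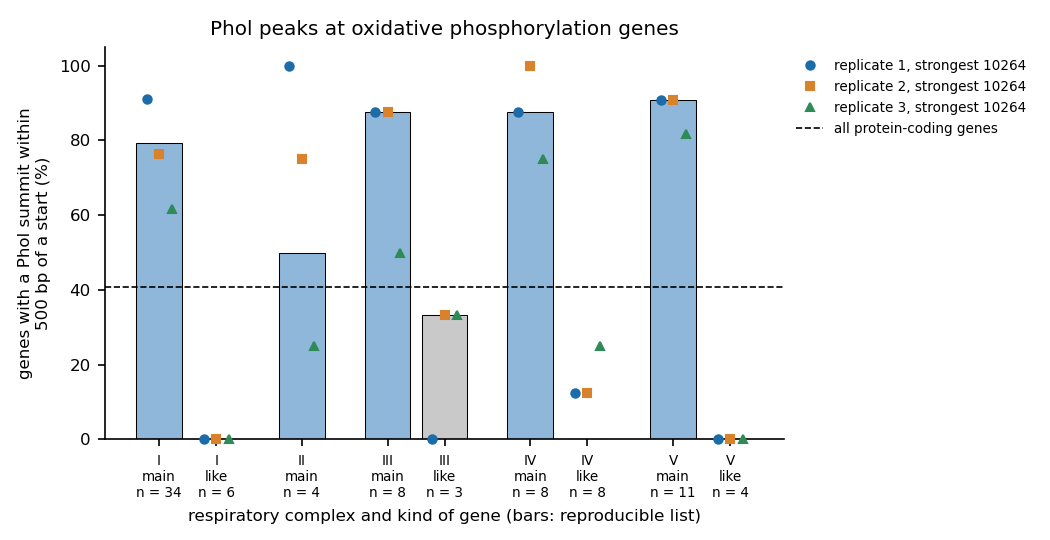
Share of genes with a Phol summit within 500 bp of a start (percent), by respiratory complex and kind of gene. Bars are the reproducible list, points the strongest 10264 peaks of each replicate, the dashed line all protein-coding genes in the reproducible list (40.8%), and n the number of genes. Every main bar lies above the line, with complex II lowest at 50%, which is 2 of 4 genes. The like bars of complexes I, IV and V are at 0.

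Complex I, which takes electrons from NADH, had peaks at 27 of 34 main genes (79.4%), with 31, 26 and 21 in replicates 1, 2 and 3. Most of its 7 core subunits carry the flavin or iron-sulfur clusters or form the ubiquinone site. The 7 were ND-20, ND-23, ND-24, ND-30, ND-49, ND-51 and ND-75. Of these 5 were occupied, with a median rank of 2820 in the reproducible list. Of the 27 accessory main subunits 22 were occupied, with a median rank of 6611. The strongest complex I peak was at ND-51, the flavin-bearing subunit that binds NADH, at rank 530 and percentile ranks of 1.42, 1.77 and 2.11 in replicates 1, 2 and 3. ND-MWFE, a small accessory membrane subunit, followed at rank 608, with 2.31, 1.67 and 2.33. ND-15, another accessory subunit, was at rank 855, with 2.73, 2.91 and 3.04. These 3 genes stayed within the top 3.1% of every replicate list. The weakest occupied gene of the complex was ND-B16.6, at rank 10192 and percentile ranks of 26.3, 35.6 and 40.6.

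Complex II, succinate dehydrogenase, had peaks at 2 of 4 genes (50%) in the reproducible list, against 40.8% of all genes. In replicates 1, 2 and 3 it had 4, 3 and 1, where 43.0%, 41.5% and 37.0% of all genes were occupied. With 4 genes, these counts are too few to set complex II apart from all genes. SdhC, a membrane anchor, had rank 358 and percentile ranks of 1.39, 1.08 and 1.22. SdhB, the iron-sulfur subunit, was far weaker, at rank 7893 with 22.3, 22.9 and 45.5. SdhA, the flavoprotein, and SdhD, the other anchor, had no reproducible peak. The summit assigned to SdhC lay 338 bp upstream of it and nearer to the start of Tctp, so that 1 complex II gene was left when a summit counted only for the gene with the nearest start.

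Complex III, the cytochrome bc1 complex, had peaks at 7 of 8 main genes (87.5%), and at 7, 7 and 4 in replicates 1, 2 and 3. None was among the strongest 1000 peaks. UQCR-11 led at rank 4118, with percentile ranks of 14.0, 9.86 and 22.9. UQCR-Q, a small subunit, was at rank 4553 with 9.80, 12.2 and 37.8, and UQCR-C2, a core protein of the matrix side, at rank 5535 with 14.1, 16.5 and 30.3. Cyt-c1, the cytochrome that hands electrons to cytochrome c, was the gene without a reproducible peak. Each of the 3 leading genes was weakest in replicate 3.

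Complex IV, cytochrome c oxidase, had peaks at 7 of 8 main genes (87.5%), with 7, 8 and 6 in replicates 1, 2 and 3. All are nuclear-encoded subunits around the mitochondrially encoded catalytic core. COX5A had the strongest peak of all members, at rank 255, with percentile ranks of 1.20, 1.16 and 0.487. COX7B followed at rank 2305 with 6.20, 7.22 and 10.6, and COX8 at rank 2391 with 9.76, 7.03 and 7.67. COX5A was strongest in replicate 3, unlike most members. Counting a summit only for the gene with the nearest start left 3 complex IV genes, since the strongest summits of COX5A, COX5B, COX6B, COX7A and COX7B lay nearer to another gene's start and 1 of these genes kept a second summit.

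Complex V, the ATP synthase, had peaks at 10 of 11 main genes (90.9%), and at 10, 10 and 9 in replicates 1, 2 and 3, a mean of 9.67 ± 0.577 (SD, n = 3). ATPsynC, the subunit of the rotating membrane ring, was at rank 465 with percentile ranks of 1.71, 1.61 and 1.48. ATPsynO, of the peripheral stalk, was at rank 2148 with 5.40, 6.84 and 9.95, and ATPsynCF6, also of that stalk, at rank 2273 with 10.1, 8.25 and 6.78. ATPsynbeta, the catalytic subunit, was at rank 4682 with 15.4, 16.2 and 16.1, and ATPsyngamma, the central shaft, at rank 4497 with 17.2, 12.8 and 18.8. The gene without a reproducible peak was ATPsyndelta, also of the central stalk.

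The peaks at main genes ranged widely in strength. The median rank of the 53 occupied main genes was 4981, and that of all 5688 occupied genes 3808. By complex the medians were 5593 for I, 4126 for II, 6326 for III, 2850 for IV and 3600 for V. Among the strongest 1000 peaks were those of 6 main genes (9.23% of 65), against 6.80% of all genes, and these were COX5A, SdhC, ATPsynC, ND-51, ND-MWFE and ND-15. Among the strongest 5132 were those of 29 of the 65 main genes, against 25.8% of all genes. The median percentile rank over all 65 main genes, occupied or not, was 19.9 ± 5.13 (SD, n = 3 replicates).

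**Figure D2:**
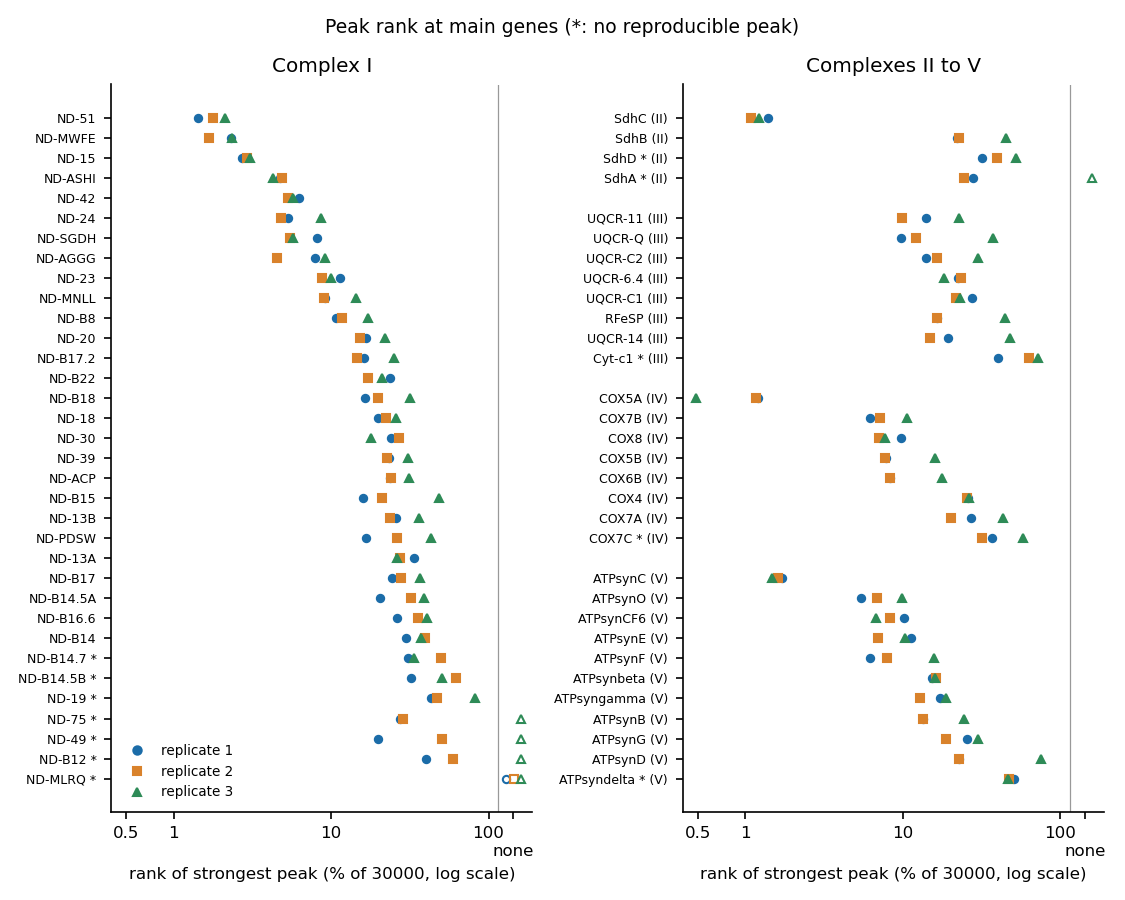
Percentile rank of the strongest Phol peak within 500 bp of a start of each main gene, in percent of the 30000 peaks of a replicate on a log axis, with 1 row per gene and 1 point per replicate. An asterisk marks the 12 genes with no reproducible peak, and open points at the right mark no peak in that replicate. The points of COX5A, SdhC, ATPsynC and ND-51 sit at the strong end in all replicates, and ND-MLRQ has none.

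Replicate 3 ranked many of the members lower. Of the 53 occupied main genes 36 (67.9%) were weakest in replicate 3, against 51.5% of all occupied genes. The ranks of these 53 genes had a Spearman rho of 0.926 between replicates 1 and 2, 0.779 between 1 and 3 and 0.841 between 2 and 3, and the corresponding values over all genes were 0.927, 0.845 and 0.890. The 6 occupied genes that follow differed by over 25 percentile points between replicates, all with replicate 3 weakest. ATPsynD, of the peripheral stalk, had percentile ranks of 22.8, 22.7 and 75.3. ND-B15 had 15.9, 21.1 and 48.5, and ND-PDSW 16.5, 26.2 and 43.3, both accessory subunits of complex I. In complex III, UQCR-14 had 19.4, 14.9 and 47.7, RFeSP, the Rieske iron-sulfur protein, 16.5, 16.4 and 44.5, and UQCR-Q the values given above. Without replicate 3 the mean count of occupied main genes was 56.5 and the members with a peak in every remaining replicate numbered 53.

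Most of the 12 main genes without a reproducible peak had a peak in other lists. In the pooled list 63 of 65 main genes (96.9%) had a peak, against 55.4% of all genes, and in the full replicate lists 64 had one in at least 1 replicate, against 62.0%, and 60 in all 3, against 49.5%. Among the replicates' strongest 10264 peaks, ND-75, ND-B14.7 and SdhA had a peak in 2 replicates, ND-49, ND-B14.5B, SdhD and COX7C in 1, and ND-19, ND-B12, ND-MLRQ, Cyt-c1 and ATPsyndelta in none. SdhA came nearest to the reproducible list, with pooled rank 10363 against the last reproducible rank of 10264, and percentile ranks of 27.9 and 24.6 in replicates 1 and 2 and no peak in replicate 3. ND-75, the largest core subunit of complex I, had pooled rank 11258 and percentile ranks of 27.3 and 28.6, again with none in replicate 3. ND-B14.7 had pooled rank 11166, SdhD 11610, COX7C 11707, ND-B14.5B 12980, ND-B12 15368, ATPsyndelta 15551, ND-19 16828 and Cyt-c1 19387. These 10 genes thus had pooled peaks below the authors' threshold.

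Of these genes, 4 with a peak in every full replicate list differed by over 25 points between replicates. ND-19 had percentile ranks of 42.9, 46.8 and 82.5, and Cyt-c1 40.2, 63.5 and 72.7. ND-B14.5B had 32.1, 61.7 and 50.3, and COX7C 36.9, 31.9 and 58.0. ND-49, a core subunit at the ubiquinone site, had 20.0 and 50.4 in replicates 1 and 2, no peak in replicate 3 and none in the pooled list. ND-MLRQ was the only main gene with no peak within 500 bp in any list, and its nearest reproducible summit lay 87847 bp away. Close to the distance limit, ATPsynbeta was counted at 432 bp, and Cyt-c1 was left out with a reproducible summit at 663 bp.

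Many main genes share a short start region with a gene on the other strand. A divergent neighbour, a protein-coding gene on the other strand with a start within 500 bp upstream, was annotated for 36 of the 65 main genes (55.4%), 3 of the 21 like paralogs (14.3%) and 27.4% of all genes. Main genes with such a neighbour were occupied in 34 of 36 cases (94.4%) and those without in 19 of 29 (65.5%). Over all genes the shares were 76.3% and 27.4%. The main genes lay above all genes in both classes, and these differences were not tested. In replicates 1, 2 and 3, main genes without a divergent neighbour were occupied in 24, 21 and 12 cases, so replicate 3 was the low one here too. Among genes with 1 annotated start and no divergent neighbour, 11 of 17 main genes (64.7%), 1 of 16 like paralogs (6.25%) and 21.4% of all genes were occupied.

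**Figure D3:**
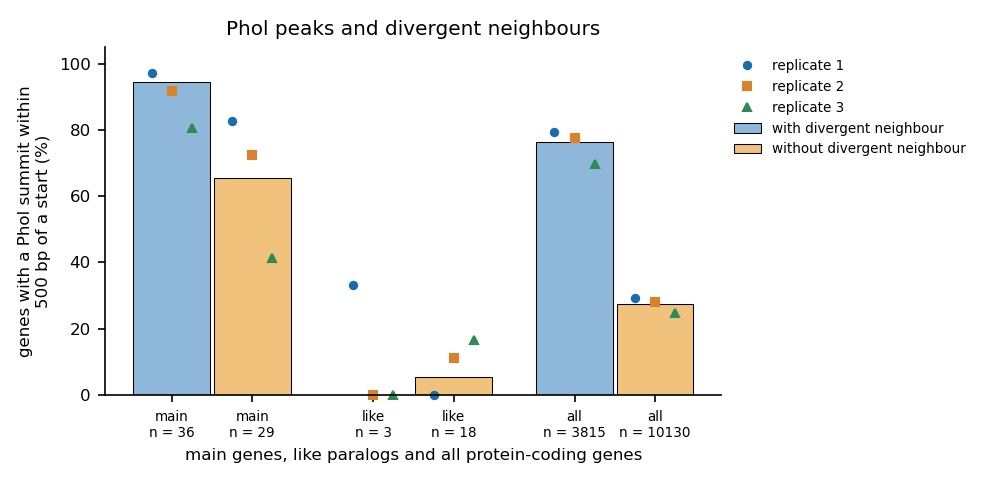
Share of genes with a Phol summit within 500 bp of a start (percent) for main genes, like paralogs and all protein-coding genes, with and without a divergent neighbour. Bars are the reproducible list, points the strongest 10264 peaks of each replicate and n the number of genes. Main genes reach 94.4% with and 65.5% without a neighbour, all genes 76.3% and 27.4%.

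A summit in such a region cannot be assigned to either gene. At 34 of the 53 occupied main genes (64.2%) another gene's start lay within 500 bp of the summit, against 55.8% over all occupied genes, and at 14 it was nearer than the member's own. COX5A shared its strongest peak with glo, which encodes an RNA-binding protein, ND-51 with CG13994, ND-MWFE with TppII and SdhC with Tctp. Some of the partners belong to mitochondrial metabolism. ND-ASHI shared a peak of rank 1346, with percentile ranks of 4.73, 4.87 and 4.29, with Fum1, a fumarase of the tricarboxylic acid cycle. ND-B16.6 shared its peak with a start of kdn, citrate synthase, ATPsynD with mRpL55, a mitochondrial ribosomal protein, and ND-42 with Cchl, a cytochrome c heme lyase. ND-PDSW shared a peak with msl-2, a component of the male dosage compensation complex. Of the strongest 6 main genes, ATPsynC and ND-15 had no other gene's start within 500 bp of the summit.

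The strongest reproducible summits at main genes lay close to the start. Their median position was 64 bp upstream, with quartiles of 133 and 7 bp upstream, and 35 of 53 (66.0%) were within 100 bp of a start. Over all occupied genes the median was 112 bp upstream, and 42.1% were within 100 bp. At the 19 occupied main genes with no divergent neighbour the median was 7 bp upstream and 17 of 19 were within 100 bp. For all occupied genes with no divergent neighbour the median was 102 bp upstream, and 43.4% were within 100 bp. ND-B22 had its summit at distance 0 from its start, ATPsynO 7 bp upstream and ND-PDSW 16 bp downstream. The farthest were ATPsynbeta at 432 bp, SdhC at 338 bp and ND-18 at 295 bp upstream. A weaker reproducible summit lay nearer to a start at ND-18 (80 bp), COX5A (41 bp), COX5B (17 bp), ND-ASHI (29 bp) and ATPsynC (16 bp). The strongest summit lay outside any exon at 37 genes and in an exon of the member at 14. At UQCR-14 it lay in an exon of CG32576, and at UQCR-C1 in an exon of CycC.

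**Figure D4:**
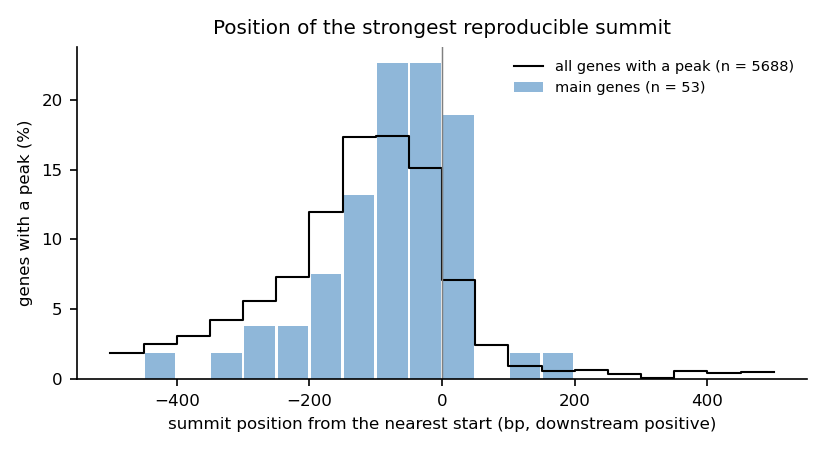
Position of the strongest reproducible summit relative to the nearest start of its gene (bp, downstream positive, bins of 50 bp), as a share of the genes with a peak. Filled bars are the 53 main genes and the line all 5688 genes with a peak. The bars are highest between 100 bp upstream and 50 bp downstream, while the line peaks between 150 and 50 bp upstream.

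Short DNA words were looked for on either strand in the 101 bases centred on each summit and in the 300 bases from 250 upstream to 50 downstream of each gene's most upstream start. GCCAT is the core of the Pho and Phol site, GCCATNTT a longer form of it with N any base, TATCGATA the DNA replication-related element and GGTCACAC the core of a promoter word called Motif 1. CAGCTG and CACGTG, words of the E-box form CANNTG, were added after the values had been seen. GCCATNTT holds GCCAT, and none of the other words contains it. The sequences below show GCCATNTT, TATCGATA and GGTCACAC, in capitals, at summits of main genes, read on the strand on which the word is written, from the release 6 genome (dm6). The COX5A and ATPsynC sequences belong to the strongest peaks of complexes IV and V.
COX5A, chr3R:11819092-11819121, plus strand: gcaccgcgtacGCCATTTTgatttcttgtc
ATPsynC, chr3R:31219344-31219373, minus strand: gataatgcgccGCCATCTTgcggcacactc
ND-AGGG, chr3L:24976234-24976263, plus strand: ataccgcactaGCCATTTTtattaccataa
ND-13A, chr2L:5100126-5100155, plus strand: attgcttgctgGCCATTTTttaccacaaaa
SdhC, chr3R:11210150-11210179, plus strand: aacattgaaatTATCGATAcgtgtatagta
ND-15, chr2L:114592-114621, plus strand: tgcaatcgataTATCGATAtgtcacaatca
COX7A, chr3R:8341027-8341056, plus strand: tatcgatgtatTATCGATAcatcgatgtcg
ND-PDSW, chr2L:3466119-3466148, minus strand: ttcgaggtagtGGTCACACctatgccgcac
UQCR-C2, chr3L:16584232-16584261, minus strand: cgctccaaaatGGTCACACcgagtaccagc

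GCCATNTT was in 5 of the 53 main summit windows (9.43%), those of COX5A, ATPsynC, ND-AGGG, ND-13A and ND-B15, against 7.32% of the 4835 summits near a protein-coding start and 6.63% of all 10264 summits. At COX5A the word lay 6 bp from the summit, at ATPsynC 12 bp, and in both cases over 200 bp from the gene's start. The shorter GCCAT was in 7 main windows (13.2%), against 22.2% of the summits near a start and 19.6% of all. Most peaks at main genes thus had no match to these letters within 50 bp of the summit. TATCGATA was at 3 main summits (5.66%), those of SdhC, ND-15 and COX7A, against 6.20% and 3.11%. GGTCACAC was at 5 (9.43%), those of ND-B14, ND-PDSW, SdhB, UQCR-6.4 and UQCR-C2, against 3.89% and 2.03%. In the 300-base start regions it was in 16 of 65 main genes (24.6%), 1 of 21 like paralogs and 7.70% of all genes.

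CAGCTG was in 10 main windows (18.9%), against 6.25% of the summits near a start and 4.07% of all. Its holders included ND-51, ATPsynO, ND-13B, ND-B22 and UQCR-C1. CACGTG was in 1 (1.89%), against 1.01% and 0.721%. Main windows had a median GC content of 38.6%, above the 34.7% of summits near a start and the 31.7% of all, and the part of base composition in these shares was not tested. Some strong members had very AT-rich windows. The whole 101-base windows are shown for ND-51, the strongest complex I gene, with CAGCTG in capitals, and for ND-23, an iron-sulfur core subunit at 16.8% GC, in which none of the words was found.
ND-51, chr2L:6062778-6062878, minus strand: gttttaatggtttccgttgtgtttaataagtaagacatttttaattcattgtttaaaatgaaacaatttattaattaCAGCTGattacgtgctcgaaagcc
ND-23, chr3R:15837200-15837300, minus strand: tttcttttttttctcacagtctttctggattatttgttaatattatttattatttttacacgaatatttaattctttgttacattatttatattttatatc

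Like paralogs were set beside their main genes, paired by symbol except where noted. In the 21 pairs the main gene alone had a reproducible peak in 16, both genes in 1, the like paralog alone in 0 and neither in 4. The partners of COX6AL and COX6AL2 (levy), of COX6CL (cype) and of ATPsynepsilonL (sun) carry other symbols, lie outside the symbol rule and were assigned from general knowledge of these genes. Both levy pairs are among the 16, and the cype and sun pairs among the 4. Protein identity within pairs ran from 30.3% to 85.6%, with a median of 51.1%. UQCR-14 had percentile ranks of 19.4, 14.9 and 47.7, while UQCR-14L, 85.6% identical to it, had no peak in any replicate. ND-51L1, 75.8% identical to ND-51, and ND-51L2, 51.6% identical, had none, and neither had ND-20L, 76.8% identical to ND-20, or UQCR-11L, 78.8% identical to UQCR-11. ATPsynbetaL, 70.1% identical to ATPsynbeta, had none either. In the pairs of ATPsynepsilonL and sun, 72.1% identical, and of ND-49L and ND-49, 62.45% identical, neither gene had a reproducible peak. All 50-base stretches within 500 bp of the most upstream start occurred once in the genome for all 21 like paralogs and for 64 of the 65 main genes, the exception being ND-AGGG with 68.1%.

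**Figure D5:**
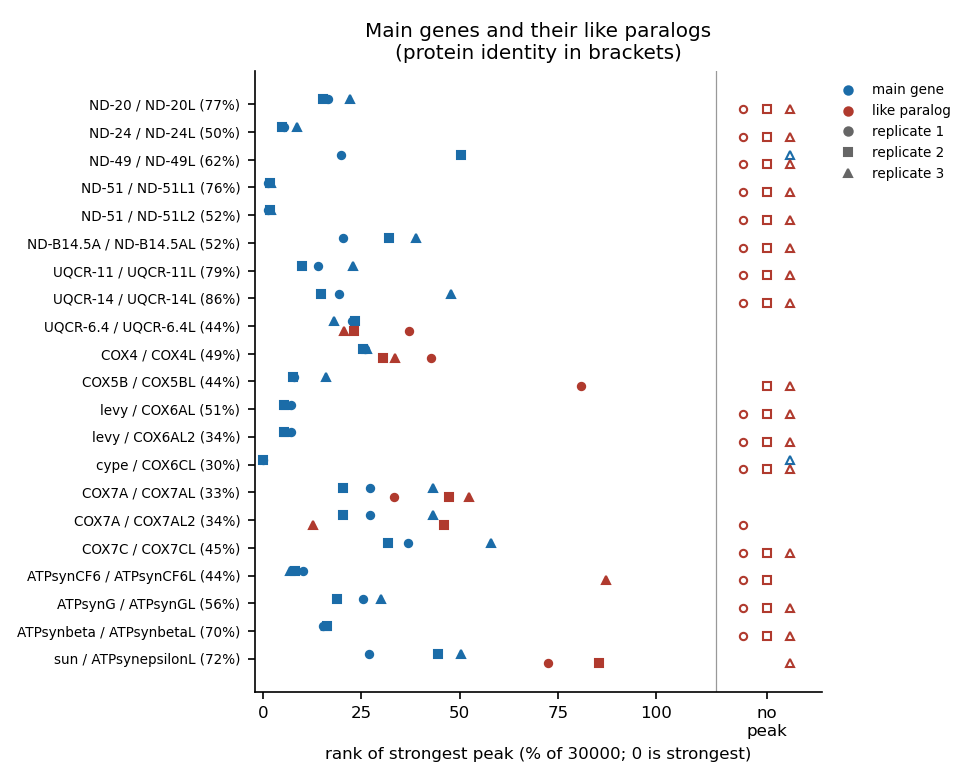
Percentile rank of the strongest Phol peak within 500 bp of a start (percent of the 30000 peaks of a replicate, with 0 the strongest) for 21 pairs of a main gene and its like paralog. Blue marks the main gene, red the like paralog, the shape the replicate, open points no peak, and brackets the protein identity. Most red points are open, and UQCR-6.4L, COX4L and COX7AL have filled red points in all replicates.

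UQCR-6.4L was the like paralog with a reproducible peak, at rank 7141 and percentile ranks of 37.3, 23.2 and 20.6. UQCR-6.4 had 22.6, 23.3 and 18.2, so the pair was close in replicates 2 and 3 and the like paralog weaker in replicate 1. Its summit lay 409 bp upstream of its start, in an intron of Mipp1, and the window is shown because it is the peak of a like paralog that passed the authors' threshold.
UQCR-6.4L, chr3L:16566291-16566391, plus strand: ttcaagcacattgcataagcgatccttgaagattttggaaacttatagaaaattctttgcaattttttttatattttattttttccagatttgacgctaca

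Of the other like paralogs, COX4L had percentile ranks of 42.7, 30.6 and 33.5, all weaker than COX4 at 25.9, 25.5 and 26.6. COX7AL had 33.3, 47.2 and 52.4, with COX7A at 27.3, 20.3 and 43.3. COX7AL2 had no peak in replicate 1, 46.1 in replicate 2 and 12.7 in replicate 3, and its nearest reproducible summit lay 514 bp away, just past the limit. COX5BL had 80.8 in replicate 1, ATPsynCF6L 87.1 in replicate 3 and ATPsynepsilonL 72.4 and 85.5 in replicates 1 and 2. The other 14 had no peak within 500 bp in any replicate. In the pooled list 5 like paralogs (23.8%) had a peak. The median distance to the nearest reproducible summit was 80 bp for main genes, 7176 bp for like paralogs and 1761 bp for all genes.

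The longer form of the Pho and Phol word was also present at genes without a reproducible peak. GCCATNTT was in the 300-base start regions of 3 like paralogs (14.3%), COX4L, COX7AL and ATPsynCF6L, of 5 main genes (7.69%) and of 5.94% of all genes. These 3 like paralogs each had a weaker peak in at least 1 full replicate list, as given above. The 5 main genes, ND-24, ND-AGGG, ND-B15, ND-B17.2 and UQCR-Q, were all occupied. The shorter GCCAT was in 38.1% of like start regions, 26.2% of main ones and 41.2% of all. The word at COX7AL lay 8 bp downstream of its start and that at ATPsynCF6L 96 bp upstream. TATCGATA was in 9 main start regions (13.8%), in 0 like ones and in 9.36% of all.
COX7AL, chr3R:8343663-8343692, minus strand: tattactataaGCCATCTTtgatggattta
ATPsynCF6L, chr3L:5012215-5012244, plus strand: agaacaggtaaGCCATCTTtttttaagatt

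Pairs in which neither gene had a reproducible peak were those of ND-49, COX7C, cype and sun. The peak near cype, a complex IV subunit, is a case of the distance limit. It had percentile ranks of 0.147 and 0.100 in replicates 1 and 2, none within 500 bp in replicate 3, and a reproducible summit 501 bp from its start. COX6CL, its like paralog with 30.3% identity, had no peak in any replicate. Main genes with a like paralog among the 21 were occupied in 13 of 15 cases and the rest in 40 of 50, against 40.8% of all genes. The 50 include SdhA, SdhB and Cyt-c1, whose L-suffixed copies the symbol rule did not select. Of these SdhB was occupied, and SdhA and Cyt-c1 were not, so the counts do not compare genes with and without any copy.

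Related genes that the symbols did not select were counted in 4 lists against the same background of 40.8%. Of 14 other subunits and carriers 8 were occupied (57.1%), led by blw, the ATP synthase alpha subunit, at rank 297 and Cyt-c-d, a cytochrome c, at rank 363. The 6 without a peak were Cyt-c1L, SdhAL, SdhBL, cype, sun and Mpcp1, of which 3 carry the L suffix. Pairs of related genes without that suffix went both ways. Cyt-c-p and Cyt-c-d were both occupied, and so were sesB and Ant2, by the same summit at rank 7601. Mpcp2 was occupied and Mpcp1 was not. Of 14 assembly factors 9 were occupied (64.3%), led by CIA30 at rank 187 and Ttc19 at rank 419. Of 16 tricarboxylic acid cycle genes 12 were occupied (75%), led by Idh3g, an isocitrate dehydrogenase subunit, at rank 286 and Fum1 at rank 1346. Of 15 genes for mitochondrial DNA expression, its replication and nuclear regulation 11 were occupied (73.3%), led by mTerf5 at rank 3270 and mtSSB, the mitochondrial single-stranded DNA-binding protein, at rank 3580. TFAM, which packages mitochondrial DNA, was at rank 5280, and srl, the fly relative of the PGC-1 coactivators, had no reproducible peak. Summits were shared here too. That of Cyt-c-d lay 372 bp downstream of its start, with a start of CG31808 within 500 bp. CIA30, Ttc19, Idh3g, Fum1 and mTerf5 also had another gene's start within 500 bp of the summit, while blw and mtSSB had none. A single summit counted for both Ccdc56, an assembly factor, and mtTFB1, of the last list.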

How the data were processed

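Phol ChIP-seq peaks were analysed from 3 biological replicates of 1 group. Sonicated chromatin had a fragment range of 200 to 800, per the labels. The authors deposited 5 peak lists on dm6. According to the deposited readme notes, calling used a control alignment and was done for every replicate and again for their pool, and the fifth list keeps the pooled peaks under a limit on the irreproducible discovery rate. The control is not analysed here, while the aligner, the caller and that limit were not given in the sources used here. The deposited signal value is a score with no stated scale, as the authors' caller gave it, and was used only to rank peaks within a list. The deposited −log10 q-value was at a shared maximum for all 10264 reproducible peaks and was not used. Every replicate list has the same length, which says nothing about its number of sites. Equal numbers of peaks and ranks were therefore compared, and ranks can shift with read depth, which is unknown.

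Summits were set against the starts of protein-coding genes in the Ensembl release 115 annotation of the release 6 genome, in 1-based coordinates. Counts were tested on simulated peaks placed at known distances. Protein identity came from global alignments of the annotated coding sequences, translated, with Biopython 1.88 (gap opening 11, extension 1, end gaps 0.5). Python 3.11.15, numpy 2.4.6, pandas 2.3.3 and scipy 1.17.1 were used. Members, gene lists and DNA words were chosen with earlier results of these data known. The genes named with values were the 3 strongest of each complex, main genes without a reproducible peak and like paralogs with a peak. Genes differing by over 25 percentile points between replicates and the 2 strongest of each list were named too. All pairs are plotted, but only some of them are given with values in the text. Further genes were named after their values had been seen, as examples. The alternatives were distances of 200 and 1000 bp, stricter and looser lists, the nearest or most upstream start only, overlap in place of summits, summits shared between lists within 100 or 250 bp, other list lengths and leaving out each replicate.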

Additional observations from a re-analysis of the deposited data

How the results depend on the processing

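Of 96 alternative values for the counts and medians given, 76 stayed within 1.5 times the count reported or within 1 SD, and 20 moved further. Among the 76, counting a summit only for the gene with the nearest start lowered the members from 54 to 42. It lowered the main genes from 53 to 41. The share of all genes under that setting is not given here, so those counts have no background beside them. With the strongest 5132 reproducible peaks the counts were 29 members, 29 main genes and 0 like paralogs, with 13 in complex I, 1 in complex II and 2 in complex III. The count of like paralogs was 0 at 200 bp, 3 at 1000 bp, 5 in the pooled list and 0 when the peak had to overlap a start. Counts by complex in this section take main genes and like paralogs together. Complex II gave 1 gene at 200 bp, 1 by the nearest start only and 4 in the pooled list. Complex IV gave 3 by the nearest start only and 11 in the pooled list, of which 8 were main genes and 3 like paralogs. With 5132 peaks per replicate the means were 29 members, 28.7 main genes and 0.333 like paralogs, and with all peaks the mean for like paralogs was 5 and members with a peak in every replicate numbered 63. A stricter list or a shorter distance holds fewer peaks by construction. Leaving out replicate 1, 2 or 3 gave means of 50 to 58 members, 47.5 to 56.5 main genes and 1.5 to 2.5 like paralogs, with 41 to 53 members in every replicate. No paired analysis was possible because there is 1 group. Read depth is unknown, and a gene without a peak may hold binding below the lists' limit.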
